A study of Mus musculus with 12 samples.

Results

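The nuclear-encoded genes of the mitochondrial respiratory chain were followed in RNA-seq libraries of the mouse hippocampus. They were taken from each deposited table as the protein-coding or mixed loci whose gene name starts with Nduf, Uqcr, Sdh or Atp5, or with Cox followed by a digit between 4 and 8. Names of pseudogenes were left out, and the longest locus was used for a gene with several. This gave 84 genes in all. The siGSK3b table held 79 of them among 16687 loci, that for L803mts 80 among 17394 and that for ketamine 81 among 17864, and 76 were in all 3 tables. Every gene found by the rule had been tested by the authors, so no filter on low values removed any.

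The 12 libraries were made from poly(A)-selected RNA of C57BL/6 hippocampus, 3 per group. The siGSK3b group was given 10 µg of an siRNA against the kinase GSK3β through the nose, every other day over 3 days. The L803mts group was given 60 µg of the GSK3 inhibitor L803mts by the same route and schedule, and the treatment protocol spells that compound L808mts. The ketamine group received 10 mg/kg of this NMDA receptor antagonist by intraperitoneal injection, and 24 h passed before the tissue was taken. For the control group, 5 µL of vehicle went into each nostril on the schedule of the intranasal groups. Ketamine was therefore compared with a vehicle given by another route and on another schedule, and drug, route and schedule cannot be told apart. All 3 comparisons use the same 3 control libraries, and nothing in the labels says whether the libraries came from separate mice, so p-values measure the spread between libraries, which may be technical.

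The respiratory chain lies in the inner mitochondrial membrane. Complex I (NADH dehydrogenase, Nduf genes) and complex II (succinate dehydrogenase, Sdh genes) pass electrons to ubiquinone, complex III (Uqcr genes) hands them to cytochrome c, and complex IV (cytochrome c oxidase, Cox genes) to oxygen. Complex V, the ATP synthase (Atp5 genes), uses the proton gradient that complexes I, III and IV build to make ATP, on which neurons depend for ion pumping and synaptic transmission. Some core subunits are encoded in mitochondrial DNA, and these are not among the genes described here. NRF1, GABPA (an ETS factor) and YY1 are transcription factors known to bind many promoters of respiratory chain genes.

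By complex, the 84 genes comprised 34 subunit genes of complex I, 4 of complex II, 8 of complex III, 16 of complex IV and 14 of complex V, with 5 genes of assembly factors. These genes were assigned to complexes by name, Cox7a2l to complex IV among them, and whether each encodes a subunit was not checked. Ndufa4 was counted with complex I after its name, although its protein is now assigned to complex IV. The remaining 3 genes carry the names only. Cox4nb encodes a subunit of an endoplasmic reticulum membrane complex, Atp5sl a factor of complex I assembly, and Atp5s a related mitochondrial protein. In the tables some subunit genes were joined to a neighbour and so fell outside the rule: Ndufs8 with Aldh3b1, Atp5o with Donson and Ndufb2 with Adck2 in all 3 tables, Uqcrb with Mterfd1 in the L803mts and ketamine tables, Cox8a with Otub1 in the L803mts table, and Cox7a1 with Gm5113 in the ketamine table. None of these joint loci passed the authors' test, and their smallest FDR was 0.152, for the locus of Aldh3b1 and Ndufs8 in the siGSK3b table. Some loci kept by the rule were also far longer than the RefSeq gene. That of Cox4i1 covered 71120 bases in the siGSK3b table and 171999 in the ketamine table, against a gene of 5985 bases. That of Ndufa4 covered 54823 bases in the ketamine table, against a gene of 7079 bases. What else such loci hold was not assigned here. Other loci were shorter than the gene. Those of 10, 12 and 14 genes covered under 50% of the RefSeq gene length in the siGSK3b, L803mts and ketamine tables.

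Promoter windows of 300 bases around the gene start were found for 71 of the 84 genes among RefSeq sequences (GRCm38.p6). Letters were searched on both strands, each motif on its own. The NRF1 core GCGCATG was present in 14 of the 71 windows (19.7%), against 4.04% of the 27025 windows of all genes. The ETS letters CCGGAAG, which GABPA binds, were present in 16 (22.5%), against 9.12% of all windows. The YY1 letters AAGATGG were present in 11 (15.5%), against 6.48%, while TATAAA was present in 7 (9.86%), against 14.2%. The median GC content of the windows was 58.3% for these genes and 52.7% for all genes, so GC-rich letters are favoured by base composition as well. These are matches of letters and not shown to be bound. The 100 bases before the start are printed for Cox6a1 and Ndufa8, whose ketamine libraries all lay below control, and for Cox5b and Uqcrh, whose ketamine libraries all lay above control. The 4 genes were chosen after their values were seen, from genes whose 100 bases hold a searched motif. Each is written 5′ to 3′ on the strand of the gene, with the motif in capitals. Cox6a1 (chr5:115348959-115349058, minus strand) has the ETS letters in reverse, beginning 16 bases before the start, and Ndufa8 (chr2:36049339-36049438, minus strand) has the NRF1 core in reverse, beginning 7 bases before it. Cox5b (chr1:36691387-36691486, plus strand) has the NRF1 core in the forward direction, beginning 51 bases before the start, and Uqcrh (chr4:116075071-116075170, minus strand) has the ETS letters in reverse, beginning 10 bases before it.
Cox6a1: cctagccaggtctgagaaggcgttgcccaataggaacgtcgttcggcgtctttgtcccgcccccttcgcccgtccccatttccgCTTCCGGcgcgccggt
Ndufa8: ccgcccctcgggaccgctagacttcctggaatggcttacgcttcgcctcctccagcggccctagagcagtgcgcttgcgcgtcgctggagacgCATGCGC
Cox5b: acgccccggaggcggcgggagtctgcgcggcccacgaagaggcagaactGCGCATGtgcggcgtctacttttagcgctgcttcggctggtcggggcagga
Uqcrh: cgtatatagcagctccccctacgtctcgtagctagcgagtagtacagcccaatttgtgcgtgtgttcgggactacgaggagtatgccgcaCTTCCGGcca
The choice of these 4 genes set how often each kind of letters appears here. In the 300-base windows of all genes whose ketamine libraries lay below control, found for 13 of 14, the NRF1 core was present in 3 (Cox6a1, Ndufa8 and Ndufb6), the ETS letters in 3 (Cox6a1, Cox8a and Ndufb6) and the YY1 letters in 1 (Ndufs6). In those of the 3 genes above control the NRF1 core was present in 2 (Atp5g2 and Cox5b) and the ETS letters in 1 (Uqcrh).

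Values are FPKM, fragments scaled to transcript length and library size. Levels of different genes are set side by side with a limit, since the level of a gene also differed between tables, as described below. The median FPKM per library was between 8.66 and 10.2, and read depth is unknown, since FPKM keeps no counts. Gsk3b, the target of the siRNA, had 18.4, 19.3 and 18.9 FPKM in the libraries labelled siGSK3b, against 18.0, 17.3 and 17.8 FPKM in control libraries. It was not lower in any library labelled siGSK3b, and the label is kept below only as a name. Of 13 marker lists for other cell types and regions, the summed FPKM of treated and control libraries did not overlap for 1 list in the siGSK3b table (neocortex, lower), for 4 in the L803mts table (excitatory hippocampal neurons and microglia lower, meninges and striatal neurons higher) and for 1 in the ketamine table (oligodendrocytes, lower). The 15 markers of choroid plexus epithelium, the tissue that secretes cerebrospinal fluid, varied most between libraries. In the siGSK3b table they summed to between 3531 and 5249 FPKM in siGSK3b libraries, against 3858, 242 and 48.3 FPKM in control libraries 1, 2 and 3.

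Respiratory chain genes were abundant. In the ketamine table the median of the 81 genes was 68.2 FPKM in control libraries, against 8.93 FPKM for the median locus. In controls of that table complex V had the highest median, 122 FPKM over 14 genes, followed by complex II at 91.0, complex III at 90.6, complex IV at 78.4 and complex I at 66.6 FPKM, and assembly factors were lower, at 13.6 FPKM. Complex V was highest and assembly factors lowest in controls of the other tables as well, but the order between them differed. Complex IV had a median of 81.4 FPKM and complex I 84.0 FPKM in the siGSK3b table, and complex IV 40.2 FPKM and complex I 71.7 FPKM in the L803mts table. In the ketamine controls the genes within each complex spanned a wider range than the complex medians did, in complex II from 33.0 to 158 FPKM.

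**Figure D1:**
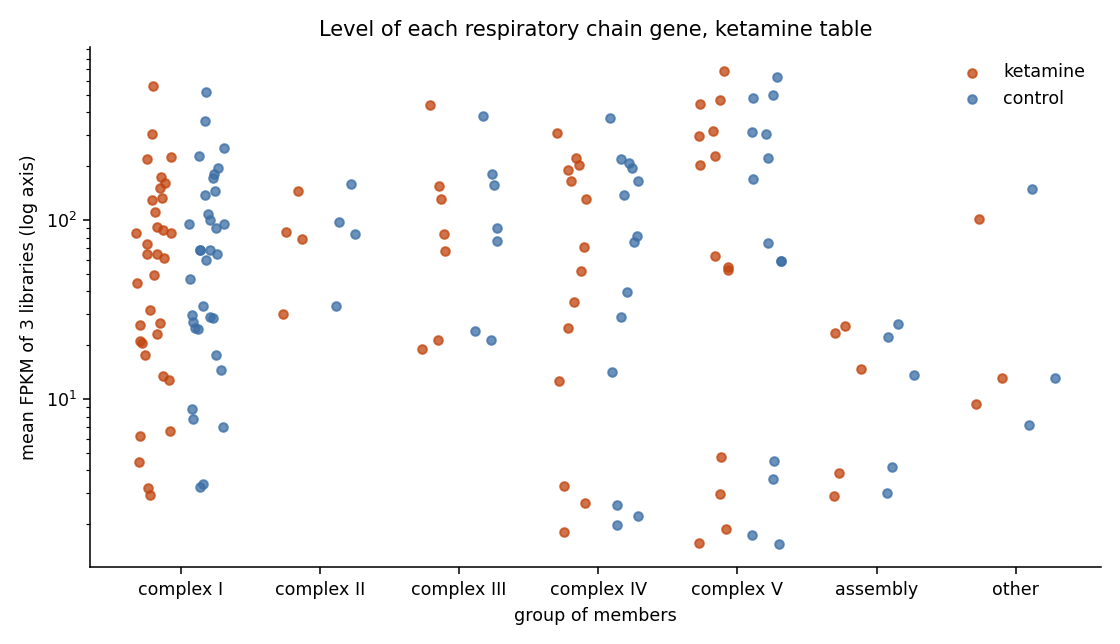
Mean FPKM of each respiratory chain gene (1 point per gene, log axis) over 3 ketamine and 3 control libraries of the ketamine table, grouped by complex. Both groups cover the same range in every complex, with control means between 1.56 FPKM (Atp5g2) and 635 FPKM (Atp5a1).

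Atp5a1 and Atp5b, the α and β subunits of the catalytic head of the ATP synthase, stood highest. In the ketamine table Atp5a1 had 664, 665 and 715 FPKM in ketamine libraries, against 684, 552 and 667 FPKM in control libraries. Atp5b had 476, 454 and 480 FPKM in ketamine libraries, against 522, 441 and 546 FPKM in control libraries. The groups overlapped for both. In control libraries of that table the highest levels were those of Ndufa5 and Ndufa4 in complex I, Sdha and Sdhb, the flavoprotein and the iron-sulphur subunit, in complex II, Uqcrh and Uqcrq in complex III, and Cox4i1 and Cox6b1 in complex IV. Ndufb10 was the highest of complex I in the L803mts controls, at 402 FPKM. Cox7b there had 214 FPKM, against 210 for Cox6b1, and Sdhd had 108 FPKM, against 90.2 for Sdhb, in the siGSK3b controls.

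Isoform genes of the same subunit differed widely in level. Cox6a1, the widely expressed form of subunit VIa, averaged 52.0 ± 5.87 FPKM in ketamine and 75.5 ± 6.01 FPKM in control libraries (SD, n = 3 each), while its heart and skeletal muscle form Cox6a2 had 3.49, 2.18 and 2.20 FPKM in ketamine libraries, against 1.51, 2.40 and 2.80 FPKM in control libraries. Cox8a averaged 132 ± 13.6 FPKM in ketamine and 167 ± 8.03 FPKM in control libraries (SD, n = 3 each). Its muscle form Cox8b had 5.40, 4.03 and 0.436 FPKM in ketamine libraries, against 5.00, 0.930 and 0 FPKM in control libraries. The low and high libraries of Cox8b thus lay in both groups. The summed choroid plexus markers of those libraries were 2277, 1894 and 279 FPKM with ketamine, against 2431, 162 and 36.5 FPKM in control, and their part in the Cox8b values was not tested. Of 4 muscle markers Myh6 and Ckm were not measured, and the other two summed to between 7.40 and 11.0 FPKM in ketamine libraries, against 6.49 to 7.83 FPKM in control libraries. The testis form Cox6b2, found by the rule only in the L803mts table, had 1.20, 1.29 and 1.98 FPKM in L803mts libraries, against 0.879, 0.403 and 0.438 FPKM in control libraries. Cox6b1, the widely expressed form, had 204, 206 and 166 FPKM in L803mts libraries, against 205, 176 and 248 FPKM in control libraries. Of the 3 genes for the same c subunit of the ATP synthase rotor, Atp5g3 was highest. In control libraries of the ketamine table Atp5g3 averaged 59.5 FPKM, Atp5g1 3.60 FPKM and Atp5g2 1.56 FPKM. Several respiratory chain genes have processed pseudogenes in the genome, so reads may be shared between near-identical copies, and low values such as those of Atp5g1 and Atp5g2 are uncertain. In the siGSK3b table the locus of Atp5g1 also covered only 36.6% of the RefSeq gene length, against 67.1% for Atp5g3. The part of locus length in these levels was not tested.

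The level of a gene also depended on the table it was read from. The 3 control libraries are the same in every table, yet the control mean of 19 of the 76 shared genes differed by more than 1.5-fold between tables, and that of 39 genes stayed within 1.1-fold. Ndufc1, a small complex I subunit, had a control mean of 70.7 FPKM in the siGSK3b table, 74.1 in the L803mts table and 3.24 in the ketamine table, where its locus was 319 bases long, against 3507 and 3496 bases in the siGSK3b and L803mts tables. Uqcrc1 had a control mean of 23.2 FPKM at a locus of 2265 bases in the siGSK3b table. In the ketamine table it had 156 FPKM at 10340 bases. Cox5b had the same locus of 2100 bases in all 3 tables (chromosome 1, 36748296 to 36750395, build NCBIM37) and control means of 97.1, 172 and 139 FPKM in the siGSK3b, L803mts and ketamine tables. Treated and control libraries were therefore compared only within a table. These are short transcripts, with a median length of 655 bases against 1949 bases for all protein-coding genes of the annotation (GENCODE M21), and FPKM of short transcripts depends strongly on the length assumed.

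The siGSK3b comparison asks whether respiratory chain transcripts differed after the siRNA. The genes lay about evenly on both sides of control, and no gene passed limma's test. The median log2 fold change of log2(FPKM + 1) was -0.03 over the 79 genes, 36 lying above 0 and 43 below (54.4%, against 48.1% of all tested loci), while the median of all tested loci was 0.01. The median was 0.03 with 31 genes below 0 (39.2%, against 46.3% of all tested loci) without siGSK3b replicate 2. Without control replicate 3 it was 0.03 with 32 genes below 0 (40.5%, against 48.8%). Limma called 0 of the 79 genes at an adjusted p of 0.05 or less, where it called 0.00612% of all tested loci. At an unadjusted limma p under 0.05 it had 1 gene above and 4 below control, against 2.99% and 2.84% of all tested loci. By the authors' unadjusted p under 0.05 there were 0 above and 3 below, against 2.48% and 3.09%. The authors' deposited FDR called 1 gene, Ndufa12, as lower, where 0.508% of all tested loci were called. In bulk tissue fewer cells of a type and less RNA per cell cannot be told apart.

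Ndufa12 encodes an accessory subunit of complex I, near the site where NADH is oxidised. Its FPKM was 42.8, 50.5 and 37.5 in siGSK3b libraries, against 26.2, 288 and 136 in control libraries. The 3 siGSK3b libraries were close to each other and all lay between control libraries 1 and 3, so the groups overlapped and the spread came from control. The authors' deposited table gave a log2 fold change of -1.78 and an FDR of 0.0126. Limma gave -1.21 with a standard error of 0.73 and an adjusted p of 0.913, and without control replicate 2 the fold change was -0.46. The locus (chromosome 10, 93661754 to 93662818, NCBIM37) covers 1065 bases, 4.75% of the length of the RefSeq gene, and which part of the gene it covers was not assigned here.

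In the L803mts table Ndufa12 had 144, 81.0 and 159 FPKM in L803mts libraries, against 37.6, 325 and 145 FPKM in control libraries, and its limma fold change of 0.02 (adjusted p = 0.997) changed sign with the library left out, from -0.82 to 0.72. In the ketamine table it had 4.63, 4.29 and 4.54 FPKM in ketamine libraries, against 2.28, 17.4 and 6.63 FPKM in control libraries. Its locus in that table was 1610 bases long with a control mean of 8.77 FPKM, against 1065 bases and 150 FPKM in the siGSK3b table. The authors' deposited table called that locus lower, at a log2 fold change of -0.97 and an FDR of 0.0258. Limma gave it -0.49 with a standard error of 0.54 (adjusted p = 0.928). Without control replicate 2 the limma value turned to 0.13. Control library 2 was thus the highest and control library 1 the lowest in all 3 tables, and no treated library went beyond them. Atp5sl followed the same order in control, with 92.8, 198 and 152 FPKM in control libraries 1, 2 and 3 of the siGSK3b table.

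**Figure D2:**
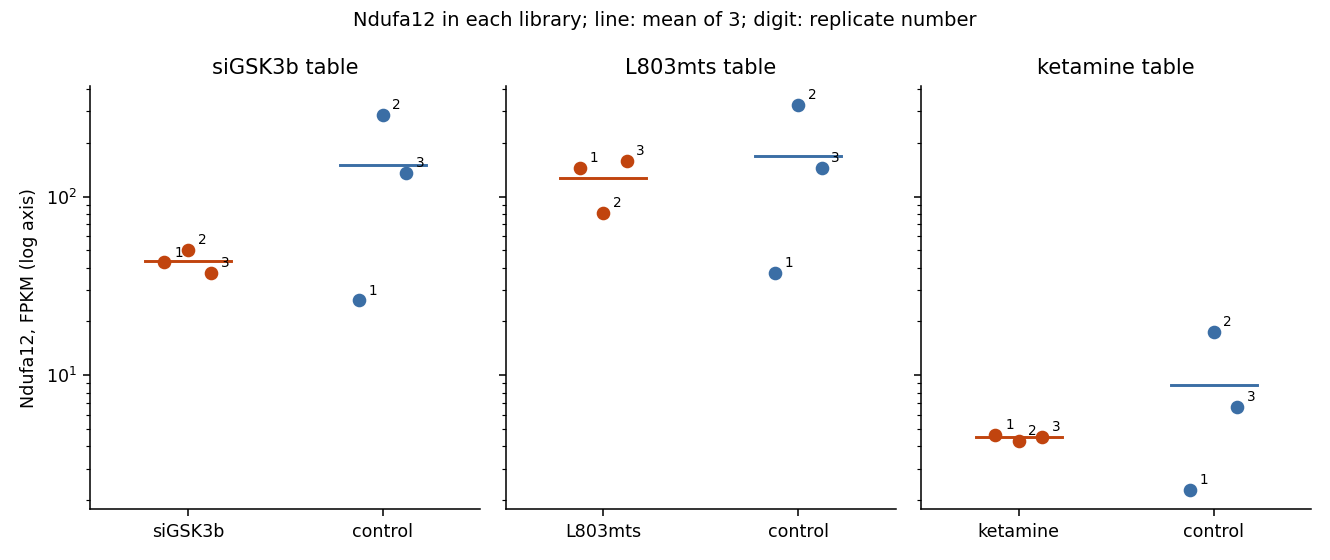
Ndufa12 FPKM (log axis) in each of the 3 treated and 3 control libraries of the siGSK3b, L803mts and ketamine tables, with the mean of 3 as a line and the replicate number beside each point. Every treated library lies between control library 1 and control library 2, which hold the lowest and highest values of each table.

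Among complexes, most ATP synthase genes lay above 0 and most cytochrome c oxidase genes below it in the siGSK3b table, where 48.1% of all tested loci lay below 0. Of 12 complex V genes 10 lay above 0, with a median log2 fold change of 0.07, and of 13 complex IV genes 11 lay below it, with a median of -0.09. The difference between the complexes was not tested. When each library was left out in turn, between 1 and 5 complex V genes lay below 0 and between 8 and 12 complex IV genes did. Of all tested loci 46.3% to 49.4% did so. The 5 were without siGSK3b replicate 1, at 49.4% of loci. The complex V mean of log2(FPKM + 1) was 6.89, 6.71 and 6.80 in siGSK3b libraries, against 6.77, 6.59 and 6.74 in control libraries. That of complex IV was 5.75, 5.62 and 5.93, against 5.83, 5.84 and 5.93, so the groups overlapped for both. Atp5h, a subunit of the ATP synthase stalk, had the highest fold change, with 331, 238 and 326 FPKM in siGSK3b libraries, against 245, 176 and 250 FPKM in control libraries. Its groups overlapped through siGSK3b library 2 (log2 fold change 0.41, limma adjusted p = 0.855).

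In 6 of the 79 genes all siGSK3b libraries lay below all control libraries (7.59%, against 4.84% of all tested loci), and in 2 genes above (2.53%, against 5.72%). At a mean of at least 20 FPKM these were 4 and 2 of 64 genes, against 3.87% and 5.92% of loci, and 45.9% of loci at that level lay below 0. The 6 were Ndufa7, Ndufs6, Uqcrh, Cox8a, Uqcr10 and Ndufc1, and the 2 were Ndufa6 and Ndufb3. Without control replicate 1 the number below was 19 (24.1%), against 10.9% of all tested loci with the same library left out. Ndufa7, an accessory subunit of complex I, had 41.9, 38.1 and 35.8 FPKM in siGSK3b libraries, against 53.0, 48.2 and 58.3 FPKM in control libraries. It had the smallest limma p among the 79 genes, 0.00253 before and 0.735 after adjustment, at a log2 fold change of -0.45 ± 0.10 (SE). Ndufs6, a zinc-binding subunit of complex I, had 12.3, 14.3 and 10.3 FPKM in siGSK3b libraries, against 14.6, 15.7 and 16.4 FPKM in control libraries, a narrow gap. Ndufb3, an accessory subunit of the membrane arm, had 34.6, 31.7 and 44.3 FPKM in siGSK3b libraries, against 31.0, 26.7 and 31.0 FPKM in control libraries. Neither passed limma's test (adjusted p = 0.848 for Ndufs6 and 0.866 for Ndufb3). Cox7a1, a muscle form of subunit VIIa, had 0, 1.81 and 1.68 FPKM in siGSK3b libraries, against 3.42, 1.49 and 1.32 FPKM in control libraries, and its groups overlapped.

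The L803mts comparison asks whether the peptide inhibitor moved the same transcripts. No gene passed either test, and most lay slightly below control. Of 80 genes 60 lay below 0 (75%, against 54.1% of all tested loci), with a median log2 fold change of -0.10, against -0.02 over all tested loci. Among loci at a mean of at least 20 FPKM, the range of most respiratory chain genes, 65.1% lay below 0, against 50 of the 61 members at that level. With quantile normalisation 51 of the 80 genes lay below 0 (63.8%, against 54.2% of all tested loci), at a median of -0.05, against -0.02. Limma and the authors' FDR called 0 of the 80 genes, where they called 0.0% and 0.65% of all tested loci. At an unadjusted limma p under 0.05 there were 2 genes above and 1 below control, against 3.61% and 2.57% of all tested loci. By the authors' unadjusted p under 0.05 there were 3 above and 0 below, against 5.03% and 2.14%.

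The size of this shift rested in large part on 2 libraries, L803mts library 3 and control library 3. L803mts library 3 was the lowest of 6 in 44 of the 80 genes, whereas L803mts library 1 was lowest in 3, and control library 3 was the highest in 30. Without L803mts replicate 3 the number of genes below 0 was 47 (58.8%, against 53.2% of all tested loci) and the median -0.04. Without control replicate 3 the number was 48 (60%, against 52.9%), at a median of -0.03. For complex V, 9 of 12 genes lay below 0 with all libraries, 4 with quantile normalisation and 2 without L803mts replicate 3. Complex I had 27 of 34 genes below 0, complex III 6 of 7 and complex IV 10 of 15. With quantile normalisation these counts were 23, 4 and 11, against 54.2% of all tested loci. Without control replicate 3 they were 19, 5 and 9, against 52.9%, and without L803mts replicate 3 complex III had 4. The excitatory neuron markers, which mark the principal cells of the hippocampus, summed to 1113, 1177 and 1228 FPKM in L803mts libraries, against 1325, 1296 and 1501 FPKM in control libraries. Of these 6 markers 3 had a higher mean with L803mts, the pan-neuronal markers overlapped between groups, and the part of either in the respiratory chain values was not tested.

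All L803mts libraries lay below all control libraries for 8 of the 80 genes (10.0%, against 6.67% of all tested loci), namely Ndufc2, Cox5b, Ndufa4, Atp5c1, Ndufb6, Cox7a2, Atp5s and Cox7c. The number was 16 (20%) without L803mts replicate 1, against 11% of all tested loci with the same library left out. It was 16 (20%) without L803mts replicate 2, against 16%, and 18 (22.5%) without control replicate 1, against 11.8%. It was 12 (15%) without control replicate 2, against 10.9%. Without L803mts replicate 3 it was 8 (10%), against 10.6%, and without control replicate 3 it was 11 (13.8%), against 15%. All L803mts libraries lay above all control libraries for Cox4nb and Cox6b2, 2 of the 80, against 5.86%. At a mean of at least 20 FPKM they lay below for 5 and above for 0 of 61 genes, against 9.39% and 3.91% of loci. Ndufc2, a membrane-arm subunit of complex I, had 132, 129 and 113 FPKM in L803mts libraries, against 134, 159 and 153 FPKM in control libraries. Its log2 fold change was -0.26 ± 0.11 (SE; limma adjusted p = 0.757), and its groups were separated by less than the spread within either. Ndufa4 had 256, 249 and 191 FPKM in L803mts libraries, against 257, 257 and 307 FPKM in control libraries. It was set apart from control by L803mts library 3 and control library 3 alone, the others lying between 249 and 257 FPKM. Atp5e, the ε subunit of the ATP synthase head, had the lowest fold change, -0.26, at 65.4, 73.3 and 50.5 FPKM in L803mts libraries, against 62.9, 82.2 and 81.3 FPKM in control libraries.

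Uqcrq, which encodes a small ubiquinone-binding subunit of complex III, was high in 1 library of each intranasal group. It had 189, 180 and 494 FPKM in L803mts libraries, against 208, 128 and 215 FPKM in control libraries of that table. In the siGSK3b table it had 282, 461 and 266 FPKM in siGSK3b libraries, against 297, 183 and 311 FPKM in control libraries. The high values thus came from L803mts library 3 and siGSK3b library 2, each the library of its table that was most often the lowest among these genes. Its log2 fold changes were 0.52 for L803mts and 0.34 for siGSK3b, and without the high library they were 0.05 and 0.09. Without control replicate 2, the lowest control library, they were 0.28 and 0.10. Cox8b had the highest fold change with L803mts, 1.21 ± 0.39 (SE; limma adjusted p = 0.757), at 1.40, 3.83 and 2.83 FPKM in L803mts libraries, against 1.63, 0.369 and 0 FPKM in control libraries. The summed choroid plexus markers were 1538, 2547 and 2402 FPKM in those L803mts libraries, against 2418, 162 and 34.6 FPKM in the control libraries, again lowest in control library 3, and their part was not tested.

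The ketamine comparison asks how hippocampal transcripts differed a day after the drug. Most genes of complexes I, II and III lay somewhat below control, though no gene passed limma's test. Of 81 genes 62 lay below 0 (76.5%, against 53.1% of all tested loci), and the median log2 fold change was -0.11, against -0.01 over all tested loci. Complex I had 30 of 34 genes below 0, complex II 4 of 4, complex III 6 of 7, complex IV 9 of 14 and complex V 8 of 14. The complex V count is near the share of all tested loci, and the complex IV count is close to that of complex V. Without control replicate 1 they were 7 of 14 for complex V and 11 of 14 for complex IV. Without control replicate 3 the counts were 24, 4, 5, 9 and 9 for complexes I, II, III, IV and V, against 53.1% of all tested loci. Limma called 0 of 81 genes, where it called 0.0114% of all tested loci, and at an unadjusted p under 0.05 it had 7 below and 2 above control, against 3.16% and 2.98% of all tested loci. The authors' FDR called only Ndufa12, described above, where 0.439% of all tested loci were called, and the authors' unadjusted p under 0.05 had 9 genes below and 1 above, against 3.31% and 2.66%.

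**Figure D3:**
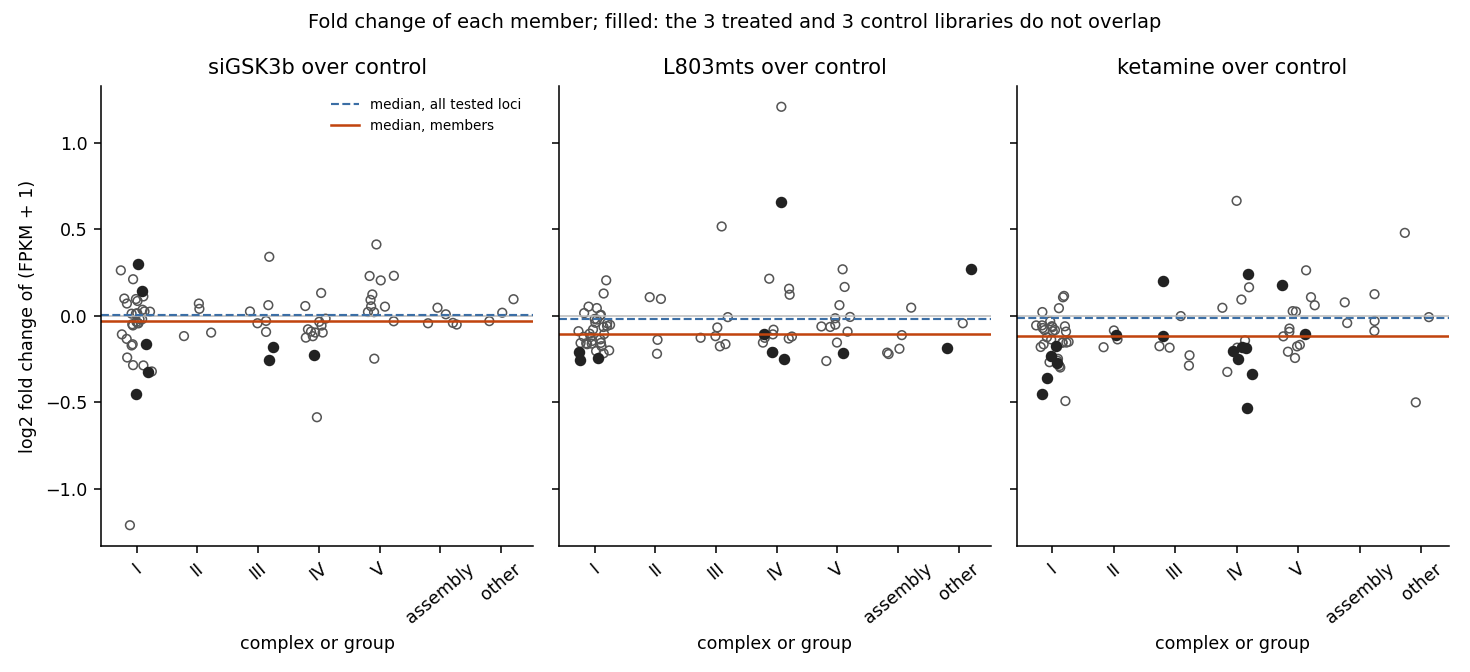
Log2 fold change of (FPKM + 1) of each respiratory chain gene (1 point per gene) in the siGSK3b, L803mts and ketamine tables, by complex, with filled points where 3 treated and 3 control libraries do not overlap. The median of these genes (solid line) lies at -0.03, -0.10 and -0.11 and that of all tested loci (dashed line) at 0.01, -0.02 and -0.01.

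The lower position held when any library was left out, but its size rested in part on control library 3. Between 56 and 64 of the 81 genes lay below 0. The fewest were without control replicate 3 (69.1%, against 53.1% of all tested loci), when the median was -0.06. Control library 3 was the highest of 6 in 34 genes and ketamine library 2 the lowest in 38, while ketamine library 3 was the lowest in 5. The mean of log2(FPKM + 1) over the 81 genes was 5.60, 5.49 and 5.58 in ketamine libraries, against 5.58, 5.65 and 5.74 in control libraries, so ketamine library 1 lay above control library 1. The oligodendrocyte markers, genes of the myelin sheath, summed to 465, 387 and 416 FPKM in ketamine libraries, against 553, 561 and 558 FPKM in control libraries, with a lower mean for 5 of 6 markers, and their part in the respiratory chain values was not tested. All 6 pan-neuronal markers had a lower mean with ketamine too, and their sums overlapped, from 1911 to 2300 FPKM with ketamine and from 1906 to 2497 FPKM in control.

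**Figure D4:**
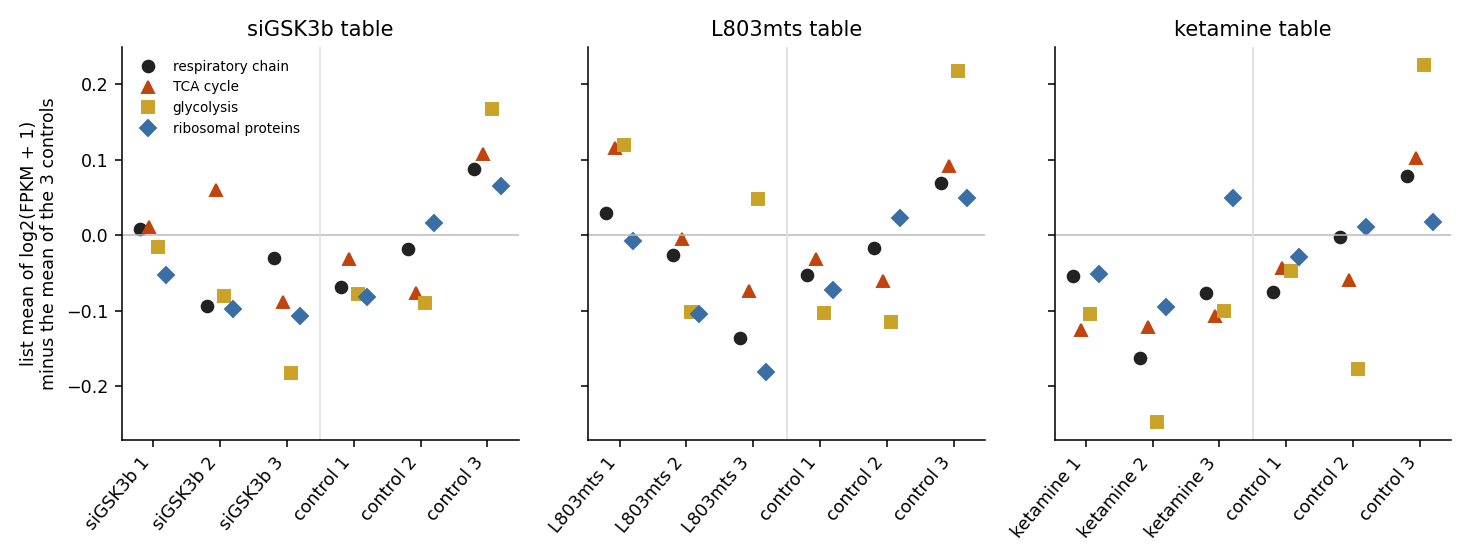
Mean of log2(FPKM + 1) over the respiratory chain, TCA cycle, glycolysis and ribosomal protein genes in each library, minus the mean of the 3 control libraries of the same table. Control library 3 is the highest control library for the 4 gene lists in all 3 tables, and ketamine library 2 is the lowest ketamine library for 3 of the lists, all but the TCA cycle.

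All ketamine libraries lay below all control libraries for 14 of the 81 genes (17.3%, against 6.19% of all tested loci), and above for 3 (3.70%, against 5.28%). At a mean of at least 20 FPKM they lay below for 12 of 61 genes (19.7%, against 6.48% of loci) and above for 2 (3.28%, against 5.76%), and 49 of the 61 lay below 0, against 53.6% of loci. With a library left out, the number below ranged from 15 to 25, a share of 18.5% to 30.9% of the members, against 9.39% to 13.4% of all tested loci. It was 25 without control replicate 1 (against 13.4% of loci) and 22 without control replicate 2 (27.2%, against 11.9% of loci). The 14 comprised 6 of 14 complex IV genes (Cox6a1, Cox8a, Cox4i1, Cox7a2l, Cox7a2 and Cox5a), 5 complex I genes (Ndufa8, Ndufs6, Ndufa7, Ndufa4 and Ndufb6), Uqcrfs1, Sdha and Atp5j. Of these, the loci of Cox4i1, Ndufa4 and Atp5j in this table were far longer than the RefSeq gene.

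Cox6a1, a subunit of cytochrome c oxidase, had the lowest limma fold change of the 81 genes. The authors' deposited table put Cox6a1 at -0.54 on the log2 scale and Ndufa12 and Atp5sl lower, Atp5sl at -0.55, and the groups of both overlapped. It had 57.6, 45.9 and 52.5 FPKM in ketamine libraries, against 73.2, 70.9 and 82.3 FPKM in control libraries. The gap between the groups was wider than the spread within either, and the log2 fold change was -0.53 ± 0.11 (SE), with a limma p of 0.00119 before and 0.519 after adjustment. Cox8a, a small subunit of the same enzyme, had 143, 117 and 135 FPKM in ketamine libraries, against 163, 161 and 176 FPKM in control libraries (log2 fold change -0.34 ± 0.09 SE, limma adjusted p = 0.684). Cox4i1, the widely expressed form of the regulatory subunit IV, had 322, 281 and 324 FPKM in ketamine libraries, against 339, 328 and 443 FPKM in control libraries. Here the groups were separated by a few FPKM, and control library 3 stood apart.

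Ndufa8, an accessory subunit of complex I imported into the intermembrane space, had 19.9, 16.1 and 16.9 FPKM in ketamine libraries, against 20.9, 25.4 and 27.5 FPKM in control libraries. Its log2 fold change was -0.45 ± 0.13 (SE; limma adjusted p = 0.692). Ndufs6 had 13.1, 14.2 and 13.2 FPKM in ketamine libraries, against 19.4, 17.1 and 16.4 FPKM in control libraries (log2 fold change -0.36, limma adjusted p = 0.692). Ndufa7 had 51.8, 46.6 and 49.1 FPKM in ketamine libraries, against 58.2, 54.5 and 66.2 FPKM in control libraries. Ndufa7, Ndufs6 and Cox8a were below control in all libraries with siGSK3b as well, in a comparison that shares its control libraries. Several gaps were small, both in complex IV and outside it. The highest ketamine library of Cox5a had 37.7 FPKM, against 37.9 FPKM in its lowest control library. For Cox7a2l these were 74.2 and 75.4 FPKM. Sdha, the catalytic subunit of succinate dehydrogenase, had 139, 150 and 150 FPKM in ketamine libraries, against 153, 152 and 170 FPKM in control libraries. Uqcrfs1, the Rieske iron-sulphur protein of complex III, had 87.7, 78.3 and 85.2 FPKM in ketamine libraries, against 88.1, 89.6 and 94.2 FPKM in control libraries.

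The genes above control in all ketamine libraries were Cox5b, Uqcrh and the low Atp5g2. Cox5b, a subunit of cytochrome c oxidase that binds zinc, had 154, 168 and 172 FPKM in ketamine libraries, against 136, 137 and 144 FPKM in control libraries (log2 fold change 0.24 ± 0.08 SE, limma adjusted p = 0.703). Uqcrh, the hinge protein of complex III, had 482, 418 and 417 FPKM in ketamine libraries, against 413, 355 and 375 FPKM in control libraries (log2 fold change 0.20 ± 0.09 SE, limma adjusted p = 0.820). The lowest ketamine library of Uqcrh lay just above the highest control library. Atp5k, a membrane subunit of the ATP synthase, had 204, 189 and 215 FPKM in ketamine libraries, against 160, 156 and 192 FPKM in control libraries. Its groups overlapped through ketamine library 2 and control library 3, and its log2 fold change of 0.26 had a limma adjusted p of 0.791. The highest log2 fold changes with ketamine were those of the low genes Cox8b, 0.66, and Cox4nb, 0.48, and both overlapped between groups. Cox4nb had 5.74, 10.6 and 11.8 FPKM in ketamine libraries, against 2.31, 10.4 and 8.81 FPKM in control libraries.

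**Figure D5:**
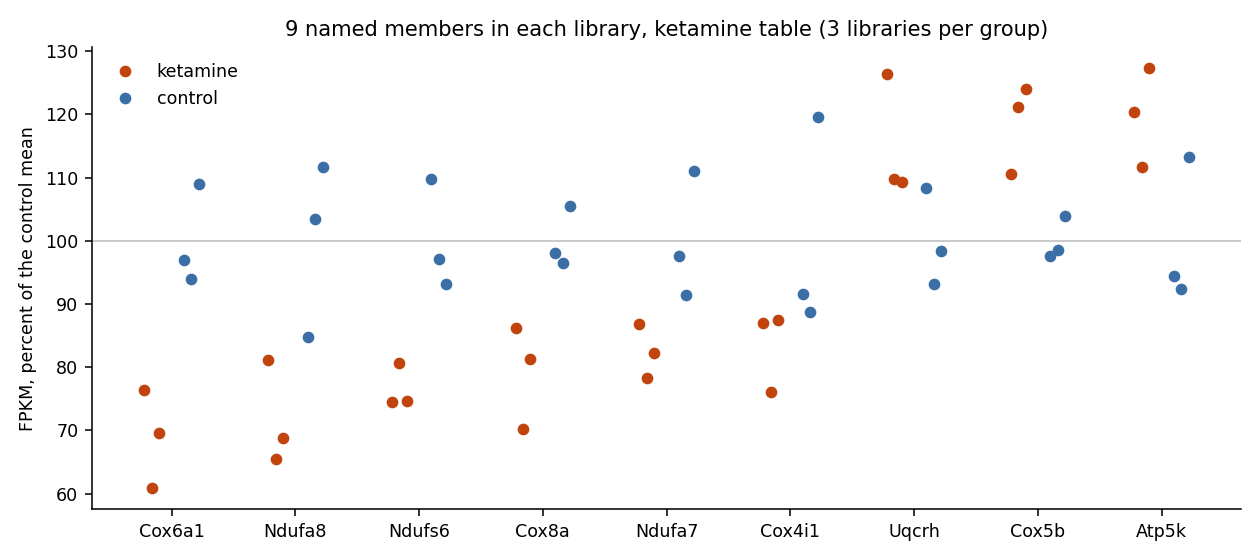
FPKM of 9 named respiratory chain genes in each of 3 ketamine and 3 control libraries, as a percent of the control mean. The ketamine libraries of Cox6a1, Ndufa8, Ndufs6, Cox8a, Ndufa7 and Cox4i1 all lie below the control libraries, those of Uqcrh and Cox5b above them, and those of Atp5k overlap with them.

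Cox5b and Uqcrh, whose promoter stretches are printed above, did not hold the same side in the other tables. Cox5b had 156, 157 and 121 FPKM in L803mts libraries, against 163, 167 and 185 FPKM in control libraries, all below control. In the siGSK3b table Cox5b overlapped between groups, with 96.2, 84.8 and 92.3 FPKM in siGSK3b libraries, against 92.4, 97.2 and 102 FPKM in control libraries. Uqcrh had 319, 265 and 322 FPKM in siGSK3b libraries, against 392, 340 and 350 FPKM in control libraries, all below control. With L803mts it had 373, 460 and 286 FPKM, against 416, 361 and 377 FPKM in control libraries, and the groups overlapped. Whether the treatments differed from each other was not tested, since the tables were normalised separately.

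Across the 76 genes found in all 3 tables, 27 lay below 0 in every comparison, 20 lay above 0 with siGSK3b and below with L803mts and ketamine, and 2 lay above 0 in every comparison. The comparisons share their control libraries, so these counts are not independent. No gene had treated and control libraries that did not overlap in all 3 tables.

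No gene of the neighbouring pathways passed limma's or the authors' test. Of the 27 other genes of the chain and its assembly listed beside the rule, 22 were measured in each table, and 13, 14 and 15 of them lay below 0 with siGSK3b, L803mts and ketamine. Their medians were -0.02, -0.09 and -0.09, and limma's unadjusted p was under 0.05 for 1, 0 and 1 of them, all below 0. Of all tested loci, 48.1%, 54.1% and 53.1% lay below 0 in these comparisons. Of 13 genes of the TCA cycle, which supplies NADH and succinate to complexes I and II, 6 lay below 0 with siGSK3b, 8 with L803mts and 11 with ketamine. With ketamine, 5 of the 13 had all ketamine libraries below all control libraries (38.5%, against 6.19% of all tested loci). Idh3g, a regulatory subunit of NAD-dependent isocitrate dehydrogenase, had the lowest fold change among them, -0.28, at 121, 97.0 and 103 FPKM in ketamine libraries, against 122, 122 and 147 FPKM in control libraries. Limma's unadjusted p was under 0.05 for 1 TCA cycle gene with siGSK3b, 0 with L803mts and 3 with ketamine, all of them lower.

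Of the measured glycolysis genes 11 of 14 lay below 0 with siGSK3b, 9 of 15 with L803mts and 12 of 14 with ketamine, at medians of -0.10, -0.02 and -0.20. Of all tested loci 48.1%, 54.1% and 53.1% lay below 0. The glycolysis mean of log2(FPKM + 1) was 6.61, 6.55 and 6.45 in siGSK3b libraries, against 6.55, 6.54 and 6.80 in control libraries. In the ketamine table it was 6.07, 5.92 and 6.07, against 6.12, 5.99 and 6.40. Both groups thus overlapped in each, and control library 3 was the highest. Of 11 regulators of mitochondrial biogenesis 4, 6 and 8 lay below 0 in the siGSK3b, L803mts and ketamine tables. Cytosolic ribosomal protein genes, another group of short and abundant transcripts, had 42 of 68 below 0 with siGSK3b, 56 of 70 with L803mts and 39 of 69 with ketamine. Their medians were -0.06, -0.11 and -0.03. Limma's unadjusted p was under 0.05 for 6 ribosomal protein genes with siGSK3b, all lower, 4 with L803mts, all lower, and 4 with ketamine, 3 of them higher and 1 lower. For glycolysis genes it was under 0.05 for 0 with siGSK3b, 2 with L803mts, both higher, and 2 with ketamine, both lower, and for none of the regulators. Of all tested loci, 2.84% were lower at this p with siGSK3b, 2.57% with L803mts and 3.16% with ketamine, and 2.99%, 3.61% and 2.98% were higher.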

How the data were processed

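Strand-specific, poly(A)-selected libraries of mouse hippocampus (3 per group, 12 in all) were grouped by their titles. The tools named in the submitters' processing notes are TopHat2 2.0.9, Cufflinks and Cuffdiff. The largest chromosome 7 coordinate, 152125580, lies beyond the last GRCm38 gene end there, 145324059, so loci are given on NCBIM37. The authors deposited 3 tables, which hold FPKM values per library, p-values, FDR (q-values) and log2 fold changes, per the file headers. The deposited fold changes and FDR are the authors' values, and a gene is called by them at an FDR of at most 0.05.

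Each table was fitted with limma 3.58.1 in R 4.3.3, using a mean-dependent prior, on log2(FPKM + 1) values of its 6 libraries. All loci with a deposited p-value below 1 entered, and two-sided p-values were Benjamini-Hochberg adjusted over them. On this scale the change of low genes is understated. The script was tested on simulated data. No permutation test was made, since 3 against 3 libraries allow no exact p under 0.1. The members and gene lists were chosen with earlier results of these data known. Genes named are Gsk3b, every member called, the 4 largest rises and falls per table at a mean of at least 1 FPKM, the 2 highest of each complex, isoform genes, members not overlapping in all 3 tables and the c-subunit genes; others were singled out for non-overlap after their values were seen. Counts below 0, counts of non-overlap and the 20 FPKM limit were chosen after seeing the data. Replicate numbers are shared between groups but did not pair the libraries. Other pseudocounts, filters, scalings, member rules and leaving out libraries were tried.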

Additional observations from a re-analysis of the deposited data

How the results depend on the processing

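Limma called 0 members in all 3 tables under every alternative that was run: pseudocounts of 0.1 and 5 FPKM, a mean of at least 1 FPKM, all loci, median scaling, quantile normalisation, no trend, the locus of highest level, subunits only, protein-coding loci only, and each library left out. With the authors' deposited FDR the count was 1 in the siGSK3b table and 1 in the ketamine table. With the replicate number as a block limma called 0 members in each table. The numbers did not pair the libraries: the correlations of same-numbered deviations were 0.0108, -0.0538 and -0.164 in the siGSK3b table, 0.0128, 0.0563 and 0.188 in the L803mts table, and 0.106, 0.042 and 0.141 in the ketamine table. With 1 library left out at a time the median log2 fold change ranged from -0.04896 to 0.02999 for siGSK3b, where it turned positive without siGSK3b replicate 2 and without control replicate 3, from -0.1492 to -0.02734 for L803mts and from -0.1363 to -0.06125 for ketamine. The number of members below 0 ranged from 31 to 54 for siGSK3b, 47 to 63 for L803mts and 56 to 64 for ketamine. The number with all treated libraries below all controls ranged from 7 to 19, 8 to 18 and 15 to 25, highest without control replicate 1 in each table. With the same libraries left out, 8.77% to 10.9%, 10.6% to 16% and 9.39% to 13.4% of all tested loci lay so. Among named genes, Ndufa12 ranged from -0.82 to 0.72 for L803mts and from -1.11 to 0.13 for ketamine, Uqcrh from -0.23 to 0.11 for L803mts, and Cox4nb from -0.07863 to 0.81 for ketamine. Ndufa12 with L803mts was at -0.002614 with a pseudocount of 5 FPKM, and Uqcrh at 0.0081 with quantile normalisation. The cause of these reversals was not tested. Read depth is unknown, so no interval or floor is given, and genes of a few FPKM, such as Cox8b, Cox6b2 and Atp5g2, cannot be judged at this precision.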
